A study of Mus musculus with 8 samples.

Results

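Expression of 10 antioxidant genes was examined in mouse bone marrow-derived macrophages: Nfe2l2, Gclm, Gclc, Gsr, Srxn1, Txnrd1, Prdx1, Prdx5, Sod2 and Nqo1. They were picked by gene symbol from a count table of 54532 genes. All 10 were among the 12234 genes with enough reads to be tested. Macrophages grown from bone marrow were sequenced as bulk RNA in 4 groups of 2 libraries. Control cells had no stimulus. The LPS group was given lipopolysaccharide from bacterial cell walls (100 ng/ml, 4 h). The IL-4 group was given interleukin 4, which drives the alternative activation of macrophages (20 ng/ml, 24 h). A last group, IL-4 then LPS, had the same IL-4 treatment, a wash, and then LPS at the same dose and time. The strain, genotype, age and number of animals, and the factor used to grow the macrophages, are not given in the sources used here.

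Cells keep peroxides low with a pair of linked systems. In the glutathione system, glutamate-cysteine ligase makes the first intermediate of glutathione from glutamate and cysteine, and glutathione reductase returns oxidised glutathione to its reduced form with NADPH. In the thioredoxin system, thioredoxin reductase uses NADPH to reduce thioredoxin, which in turn reduces the peroxiredoxins. NRF2 is the transcription factor that switches on many of these genes through a DNA sequence called the antioxidant response element, and KEAP1 holds its protein level down. Activated macrophages make superoxide, nitric oxide and peroxides, and the same enzymes detoxify them.

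The genes stand on 8 chromosomes of the mm10 build. Nfe2l2, which encodes NRF2 (ENSMUSG00000015839), lies on the minus strand of chromosome 2 from 75675513 to 75704641. The catalytic subunit of glutamate-cysteine ligase, Gclc (ENSMUSG00000032350), lies on chromosome 9 from 77754535 to 77794485, and the modifier subunit Gclm (ENSMUSG00000028124) on chromosome 3 from 122245557 to 122270732. Gsr, glutathione reductase (ENSMUSG00000031584), lies on chromosome 8 from 33652523 to 33698163. Nqo1 (ENSMUSG00000003849), a quinone reductase and a classical NRF2 target, lies on the minus strand of the same chromosome from 107388225 to 107403206. Txnrd1, cytosolic thioredoxin reductase (ENSMUSG00000020250), lies on chromosome 10 from 82833951 to 82897712. Srxn1, sulfiredoxin, which repairs over-oxidised peroxiredoxins (ENSMUSG00000032802), lies on chromosome 2 from 152105516 to 152111376. Prdx1, a cytosolic peroxiredoxin (ENSMUSG00000028691), lies on chromosome 4 from 116685544 to 116700822. Prdx5, a peroxiredoxin of mitochondria, peroxisomes and cytosol (ENSMUSG00000024953), lies on the minus strand of chromosome 19 from 6906697 to 6910106. Sod2, the manganese superoxide dismutase of mitochondria (ENSMUSG00000006818), lies on chromosome 17 from 13006846 to 13040063. Values are counts over annotated exons. Prdx5 shares 409 exon bases with Trmt112 on the opposite strand, a gene with 1465 reads in the 8 libraries, and no source used here gives the strand setting of the counting, so reads in that stretch could not be assigned to either gene with certainty.

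Promoter windows of 300 bases, 250 before and 50 after the transcription start, were available for 8 of the 10 genes from RefSeq (GRCm38.p6, the mm10 assembly); Gclc and Gsr had none. They are shown because 7 of the 10 genes differed in the same direction between the replicates described below, and because Sod2 had the largest LPS response. The antioxidant response element core, TGACNNNGC, was searched on both strands and occurred in 12.4% of all 32851 windows. It occurred in windows of Nfe2l2, Gclm, Txnrd1, Prdx1 and Srxn1. Of those 7 genes, Nqo1 had no match and Gclc and Gsr had no window, while Nfe2l2, which differed the other way, had a match. Whether the element has a part in the replicate difference was not tested. Capitals mark the match in each stretch, which is written on the strand of the gene.
Nfe2l2, chr2:75704849-75704913, minus strand, match from position -240 relative to the start: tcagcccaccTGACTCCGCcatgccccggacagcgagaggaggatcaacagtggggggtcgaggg
Gclm, chr3:122245377-122245477, plus strand, match from position -134: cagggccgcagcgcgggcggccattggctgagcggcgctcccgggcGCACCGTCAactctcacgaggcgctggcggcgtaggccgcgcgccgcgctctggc
Txnrd1, chr10:82859068-82859168, plus strand, match from position -92 of the second of 3 windows: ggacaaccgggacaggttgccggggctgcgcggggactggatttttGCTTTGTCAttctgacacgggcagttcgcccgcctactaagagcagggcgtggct
Prdx1, chr4:116685420-116685520, plus strand, match from position -133: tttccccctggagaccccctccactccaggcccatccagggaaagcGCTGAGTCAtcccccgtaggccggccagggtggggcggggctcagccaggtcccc

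The NF-kappaB consensus, the site of the main transcription factor downstream of LPS, occurred in 4.505% of all windows on either strand. Among the 10 genes it occurred in the windows of Sod2 and of Prdx1, and it did not overlap the other motif. The stretch of Sod2 is shown because this gene rose most after LPS, with the NF-kappaB match in capitals.
Sod2, chr17:13007710-13007811, plus strand, match from position -83: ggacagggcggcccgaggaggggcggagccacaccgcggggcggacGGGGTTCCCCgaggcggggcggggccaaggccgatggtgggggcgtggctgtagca
Windows of Prdx5 and Nqo1 held neither motif. A match describes letters in a window and is not a measured binding site.

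Libraries held 7924932 to 9431852 counts, and mitochondrial transcripts made up 1.07% to 1.61% of them. All 8 macrophage markers examined were tested, with a summed level of 12562 to 25102 CPM (each gene's share of the scaled counts of its library). Summed markers of other cells were low in every library: neutrophils 0.865 to 8.01 CPM with Ly6g and Elane at 0, lymphocytes 0.138 to 0.865 CPM with 5 of 7 markers at 0, erythroid cells up to 0.276 CPM, and mast cells and basophils up to 0.415 CPM. Dendritic markers, 3 of 6 tested and none at 0 throughout, summed to 0.692 to 2.05 CPM without LPS and to 6.49 to 13.7 CPM with it, and stromal markers, 3 of 5 tested and none at 0 throughout, to 1.98 to 4.33 and 16.7 to 45.0 CPM. The stromal sum rested mostly on Pdgfrb, at up to 41.3 CPM, as no other marker of that list passed 2.98 CPM. In the dendritic list Xcr1 reached 9.80 and Zbtb46 5.54 CPM, and no other marker passed 1.75 CPM. Whether such cells were present, and their part in the LPS results, was not tested. The labels number the libraries of each group 1 and 3. Xist had 2936 to 4465 reads in the replicate 1 libraries and 0 in those of replicate 3, and the Y-linked Ddx3y had 0 and 543 to 643, so the replicate numbers go with the sex of the cells. The labels do not say whether libraries of one number share an animal. Sex, animal and anything else that goes with the number cannot be told apart, and the spread between the 2 libraries of a group holds all of it.

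Levels between genes are compared per kilobase of exon. Prdx1 was the highest of the 10 in every group, at 743 ± 176 CPM per kb in control (mean ± SD, n = 2 libraries, as for all levels below) and 1253 ± 277 after LPS. In control cells, Srxn1 followed at 204 ± 133 CPM per kb. Gclm (101 ± 41.2), Nfe2l2 (92.3 ± 2.67), Prdx5 (82.6 ± 45.2) and Txnrd1 (81.8 ± 32.5) lay within 1 SD of each other. Gsr stood at 45.7 ± 17.6 and Gclc at 44.3 ± 38.8 CPM per kb, again within their spread. Sod2 (17.7 ± 11.9) and Nqo1 (17.6 ± 9.52) were the lowest by this measure. The length counts all annotated exons of a gene, 10008 bases for Sod2 and 1553 for Nqo1. In CPM not divided by length, control Sod2 was at 177 ± 120 and Nqo1 at 27.4 ± 14.8. After LPS, Prdx5 stood at 318 ± 176 CPM per kb, with Txnrd1 (179 ± 7.05) and Srxn1 (176 ± 70.0) within its spread, and in LPS replicate 1 Srxn1 was the higher, at 226 against 194 CPM per kb. Sod2 at 136 ± 31.9 CPM per kb lay within the spread of Nfe2l2 at 145 ± 51.5. Gclc (14.2 ± 6.76) and Nqo1 (7.17 ± 1.97) were then at the foot of the order. After IL-4 then LPS, Nqo1 was at 13.4 ± 7.54 and Gclc at 9.26 ± 4.32 CPM per kb, values within their spread.

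**Figure D1:**
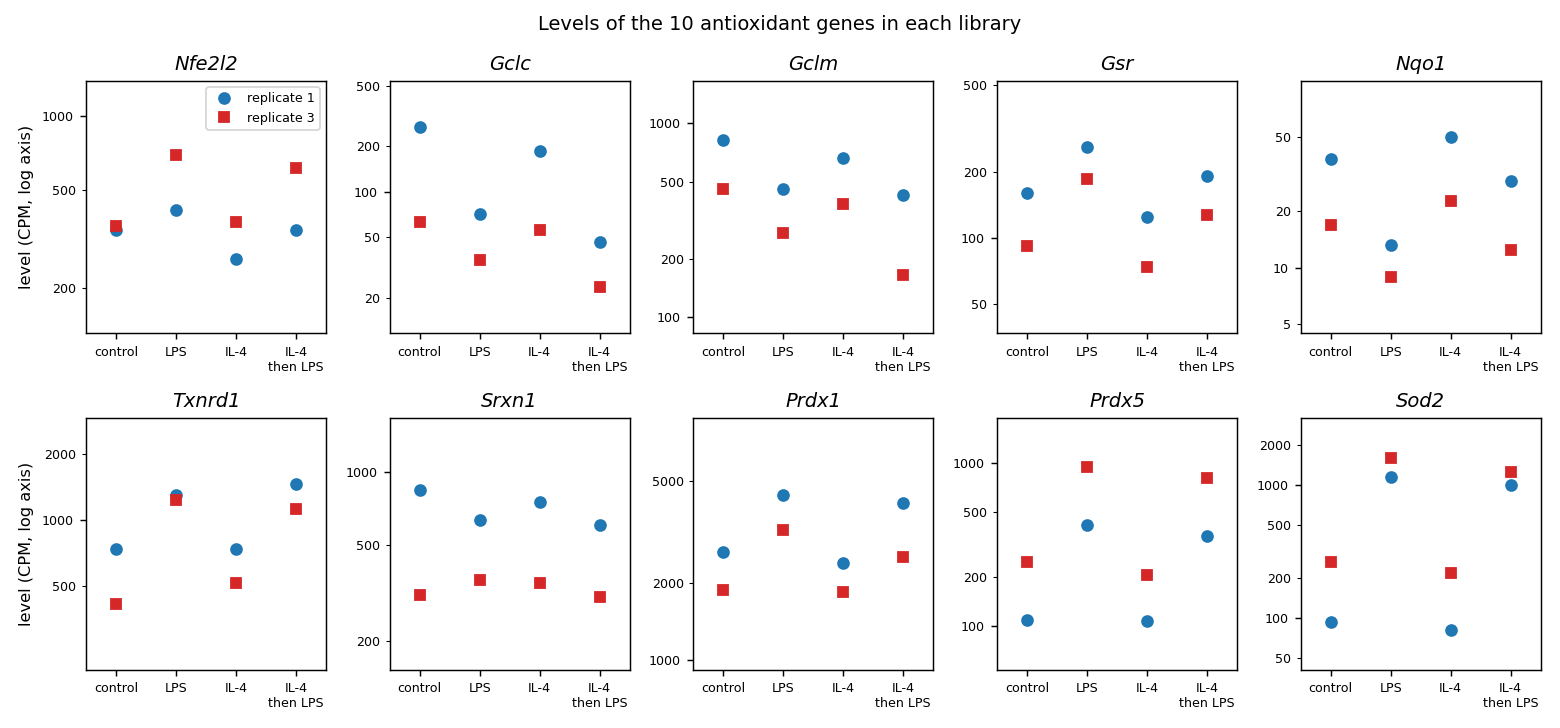
Level of each of the 10 genes in each of the 8 libraries, in CPM on a log axis that differs between panels, with circles for replicate 1 and squares for replicate 3. Sod2 stands between 81.1 and 262 CPM without LPS and between 992 and 1589 CPM with it, while in the Gclm, Gclc, Gsr, Srxn1, Txnrd1, Prdx1 and Nqo1 panels every circle lies above the square of its group.

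The LPS comparison asked how resting macrophages changed the antioxidant genes after 4 h of LPS. Sod2, Prdx5 and Txnrd1 rose and none of the 10 fell: 3 of 10 were called at an adjusted p under 0.05, where 21.8% of all tested genes rose and 18.6% fell. The others either had higher mean levels without a call (Nfe2l2, Gsr, Prdx1) or lower ones without a call (Gclm, Gclc, Srxn1, Nqo1). These calls depend on how the replicate number is treated: with it as a term in the fit (a replicate block), 9 of the 10 were called, as Nfe2l2, Gsr and Prdx1 then rose and Gclc, Gclm and Nqo1 fell. The same 9 were called without the filter on low counts. Of the 12234 genes, the replicate block called 3453 as rising and 3121 as falling. The fit without the filter called 2726 and 2749 of a larger set, every gene with any read. In bulk RNA, a change in the number of cells that express a gene and a change in RNA per cell cannot be told apart. Another scaling moves the balance of the background: with library size alone, 1547 of all genes rose and 5745 fell, against 2663 and 2279 here.

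Sod2 encodes the enzyme that turns mitochondrial superoxide into hydrogen peroxide. It was at 92.9 and 262 CPM in the control libraries (replicates 1 and 3, in this order throughout) and at 1138 and 1589 CPM after LPS. Both LPS libraries lay far above both control libraries. The log2 fold change was 2.94 ± 0.59 (SE, adjusted p 0.00548), and the ratio was 3.61 within replicate 1 and 2.60 within replicate 3 on the log2 scale. The call was kept in every alternative run, with an adjusted p of at most 0.0297 when 1 library was left out.

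Prdx5 encodes the peroxiredoxin that also stands in mitochondria. It was at 108 and 245 CPM in control and at 414 and 946 CPM after LPS, so the groups did not overlap although replicate 3 was higher than replicate 1 in each. The log2 fold change was 1.95 ± 0.60 (adjusted p 0.0331), with nearly the same ratio within the numbers, 1.94 and 1.95. The call was lost without control replicate 1 (adjusted p 0.179), without LPS replicate 3 (0.186) and with library-size scaling (0.0671). Txnrd1 encodes the reductase that recharges thioredoxin. Its level was 742 and 417 CPM in control and 1307 and 1236 CPM after LPS, again without overlap. The LPS libraries were closer to each other than the control libraries were. The log2 fold change was 1.13 ± 0.30 (adjusted p 0.0189), 0.82 within replicate 1 and 1.57 within replicate 3. The call was lost without control replicate 3 (0.0948), LPS replicate 1 (0.0615) or LPS replicate 3 (0.056), with upper-quartile scaling (0.0519) and with library-size scaling (0.194).

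Glutathione synthesis genes had lower means after LPS, without a call. Gclc, which holds the active site of glutamate-cysteine ligase, was at 270.3 and 63.5 CPM in control and at 71.4 and 35.4 CPM after LPS. The replicate 1 library after LPS was still above the replicate 3 control library, so the groups overlapped. The log2 fold change was -1.65 ± 0.78 (adjusted p 0.129), -1.92 within replicate 1 and -0.84 within replicate 3. Gclc was called as falling with the replicate block (-1.43, adjusted p 0.00105), without the low-count filter (-1.69, 7.23e-17) and with library-size scaling (-2.26, 0.048). Without control replicate 3 the fall was also called (log2 fold change -2.38), in a fit that rests on a lone control library. The run without the filter let in every gene with any read. Its p-value comes from the same overlapping groups of 2 libraries, so it does not measure how well the fall repeats. Gclm, the modifier subunit that raises the activity of the enzyme, was at 822 and 455 CPM in control and at 459 and 272 CPM after LPS. Its log2 fold change was -0.81 ± 0.50 (adjusted p 0.235), close to the ratios within the numbers, -0.84 and -0.74. It was called with the replicate block (adjusted p 0.00181) and without the filter (0.000123).

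The ratio of Gclm to Gclc, both per kilobase, was 1.82 in control replicate 1, 4.29 in control replicate 3, 3.85 in LPS replicate 1 and 4.60 in LPS replicate 3. It was 2.13 and 4.07 after IL-4 and 5.50 and 4.26 after IL-4 then LPS. Within replicate 1 the ratio was higher in both libraries with LPS than in both without it, and within replicate 3 the 4 values lay between 4.07 and 4.60.

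Gsr, which recycles rather than makes glutathione, pointed the other way. It was at 160.1 and 91.6 CPM in control and 259.8 and 186 CPM after LPS, groups that did not overlap. The log2 fold change of 0.82 ± 0.36 was not called (adjusted p 0.103), and the ratio was positive within both numbers, 0.70 and 1.02. Prdx1, the most abundant of the 10, was at 2639 and 1882 CPM in control and 4408 and 3218 CPM after LPS, also without overlap. Its log2 fold change of 0.75 ± 0.30 had an adjusted p of 0.0821 and was also called with DESeq2 (0.0323), and the ratios within the numbers were 0.74 and 0.77. Srxn1 was at 840.2 and 311 CPM in control and at 637 and 357 CPM after LPS, so replicate 1 was lower and replicate 3 higher (-0.40 and 0.20). The pooled log2 fold change was -0.21 ± 0.57 (adjusted p 0.791) and turned positive without control replicate 1 (0.62) or LPS replicate 3 (0.15).

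Nfe2l2 was at 343 and 358 CPM in control and at 413 and 689.6 CPM after LPS. Its log2 fold change was 0.65 ± 0.33 (adjusted p 0.15), 0.27 within replicate 1 and 0.95 within replicate 3. The control libraries were nearly level and the LPS libraries were not, with replicate 3 the higher. Nqo1 was at 37.8 and 16.9 CPM in control and at 13.3 and 8.98 CPM after LPS, without overlap. Mean levels of NRF2's own transcript and of its classical target thus moved in opposite directions, neither with a call. The log2 fold change of Nqo1 was -1.30 ± 0.57 (adjusted p 0.103), -1.51 and -0.91 within the numbers. Nqo1 was called as falling with the replicate block (-1.24, adjusted p 0.00039), without the low-count filter (-1.34, 1.95e-07), with DESeq2 (0.0368) and with library-size scaling (-1.91, 0.0289). The limit given for Gclc without the filter holds here too.

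The LPS response was measured a second time in cells given IL-4 first. No source used here says whether the IL-4 cells also had the wash and 4 h more in culture, so this comparison, and the difference between the responses, may hold those steps besides LPS. Sod2, Prdx5 and Txnrd1 rose again and none of the 10 fell, beside 20.7% of all genes that rose and 18.6% that fell. Sod2 was at 81.1 and 217 CPM after IL-4 and at 992 and 1251 CPM after IL-4 then LPS, a log2 fold change of 2.91 ± 0.59 (adjusted p 0.00609). Prdx5 went from 108 and 206 CPM to 356 and 804 CPM (1.89 ± 0.59, adjusted p 0.0376). Txnrd1 went from 737 and 517 CPM to 1465 and 1122 CPM (1.04 ± 0.30, adjusted p 0.0266). For these 3 genes the libraries with LPS lay above those without it. The same held for Gsr and Prdx1, which were not called, and the Gclc libraries with LPS lay below those without it. The share of all tested genes without overlap is not given here for either arm. The Prdx5 call was lost without IL-4 replicate 1 (0.179), IL-4 replicate 3 (0.0547) or IL-4 then LPS replicate 3 (0.216), with upper-quartile scaling (0.0512) and with library-size scaling (0.0666). The Txnrd1 call was lost without IL-4 replicate 3 (0.126) or IL-4 then LPS replicate 1 (0.122), with upper-quartile scaling (0.0695) and with library-size scaling (0.199).

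The other 7 genes had the signs they had without IL-4 and no call. All of them except Srxn1 were called with the replicate block and without the low-count filter. Of the 12234 genes, the block called 3182 as rising and 3151 as falling. The fit without the filter called 2573 and 2730 of the larger set. Gclc was at 186 and 56.0 CPM after IL-4 and at 46.4 and 23.4 CPM after IL-4 then LPS, a log2 fold change of -1.80 ± 0.79 (adjusted p 0.11). It was called as falling with the replicate block (-1.65, adjusted p 0.000543), without the filter (-1.84, 2.97e-19) and with library-size scaling (-2.33, 0.0475). The p-value without the filter again rests on groups of 2 libraries and does not measure how well the fall repeats. Gclm was at 663 and 381 CPM, then 426 and 166 CPM (-0.82 ± 0.51, adjusted p 0.237). Nqo1 was at 49.5 and 22.8 CPM, then 29.0 and 12.5 CPM (-0.81 ± 0.54, adjusted p 0.274). Within each replicate number, these 3 genes were lower with LPS than without it. Gsr was at 125 and 73.7 CPM, then 192 and 127 CPM (0.69 ± 0.36, adjusted p 0.168). Prdx1 was at 2405 and 1841 CPM, then 4113 and 2533 CPM (0.65 ± 0.30, adjusted p 0.129). Nfe2l2 was at 263 and 369 CPM, then 345 and 610.5 CPM (0.60 ± 0.33, adjusted p 0.19). These 3 were higher with LPS within each number, although for Nfe2l2 the groups overlapped. Srxn1 was at 755 and 349 CPM, then 603 and 305 CPM (-0.28 ± 0.57, adjusted p 0.728), and its sign turned without IL-4 replicate 1 (0.38) or IL-4 then LPS replicate 3 (0.13).

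**Figure D2:**
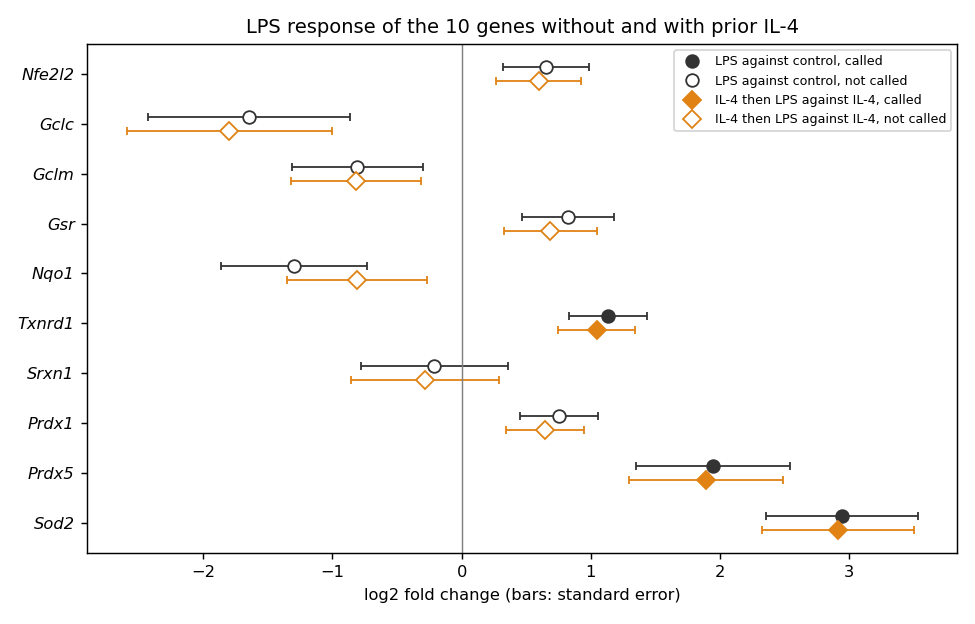
Log2 fold change of the 10 genes with LPS, without prior IL-4 (circles) and after it (diamonds), with standard errors as bars; filled symbols are called at an adjusted p under 0.05. Sod2 (2.94 and 2.91), Prdx5 (1.95 and 1.89) and Txnrd1 (1.13 and 1.04) are filled, and the symbols of each gene lie within each other's bars.

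Whether prior IL-4 altered the LPS response was tested as the difference between the responses, IL-4 arm minus the other. None of the 10 genes was called by edgeR's quasi-likelihood test, nor was any of the 12234 genes (0.00%). At an unadjusted p under 0.05, 0 of the 10 and 322 of all genes stood, and DESeq2 called 0 and 5. For Sod2 the difference was -0.03 on the log2 scale (95% interval -1.83 to 1.76), for Prdx5 -0.06 (-1.94 to 1.83) and for Txnrd1 -0.09 (-1.06 to 0.88). The intervals run from a response several times weaker to one several times stronger for Sod2 and Prdx5, so equal responses were not shown. Nqo1 had the largest difference, 0.49 (-1.31 to 2.29).

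IL-4 alone, against control, asked what 24 h of the cytokine did to the same genes at rest. None of the 10 was called (adjusted p 0.890 to 0.999), 0 stood at an unadjusted p under 0.05, and DESeq2 called 0. Of all 12234 tested genes, 0.0654% were called, 892 stood at an unadjusted p under 0.05 and DESeq2 called 110. Nqo1 was higher after IL-4 within both numbers, 37.8 against 49.5 CPM and 16.9 against 22.8 CPM, with a log2 fold change of 0.40 (95% interval -0.82 to 1.62). Gsr was lower within both numbers, 160.1 against 125 CPM and 91.6 against 73.7 CPM, with -0.34 (-1.17 to 0.48). Gclc was also lower within both, with -0.47 and the widest interval, -2.21 to 1.28. Gclm, Prdx1, Prdx5 and Sod2 were lower within both too, while Nfe2l2, Srxn1 and Txnrd1 went in opposite directions within the numbers. The narrowest interval was that of Txnrd1, 0.11 (-0.57 to 0.80).

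Prior IL-4 was also compared among cells given LPS, as IL-4 then LPS against LPS. None of the 10 was called (adjusted p 0.731 to 0.993), 0 stood at an unadjusted p under 0.05, and DESeq2 called 0. Of all 12234 tested genes, 0.0654% were called, 1040 stood at an unadjusted p under 0.05 and DESeq2 called 119. Nqo1 stood furthest from 0, at 13.3 and 8.98 CPM after LPS against 29.0 and 12.5 CPM after IL-4 then LPS. Its log2 fold change was 0.89 ± 0.57 (95% interval -0.44 to 2.22), 1.13 within replicate 1 and 0.47 within replicate 3. The groups overlapped by 1 library, since LPS replicate 1 lay above IL-4 then LPS replicate 3. Without the filter on low counts Nqo1 was called in this comparison. Gclc was lower after IL-4 then LPS within both numbers (-0.62 and -0.60), as was Gsr (-0.44 and -0.54). Nfe2l2, Gclm, Srxn1, Prdx1, Prdx5 and Sod2 were lower within both too, so 8 of the 10 had a negative log2 fold change and 2 a positive one. Txnrd1 went in opposite directions within the numbers, 0.16 and -0.14.

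**Figure D3:**
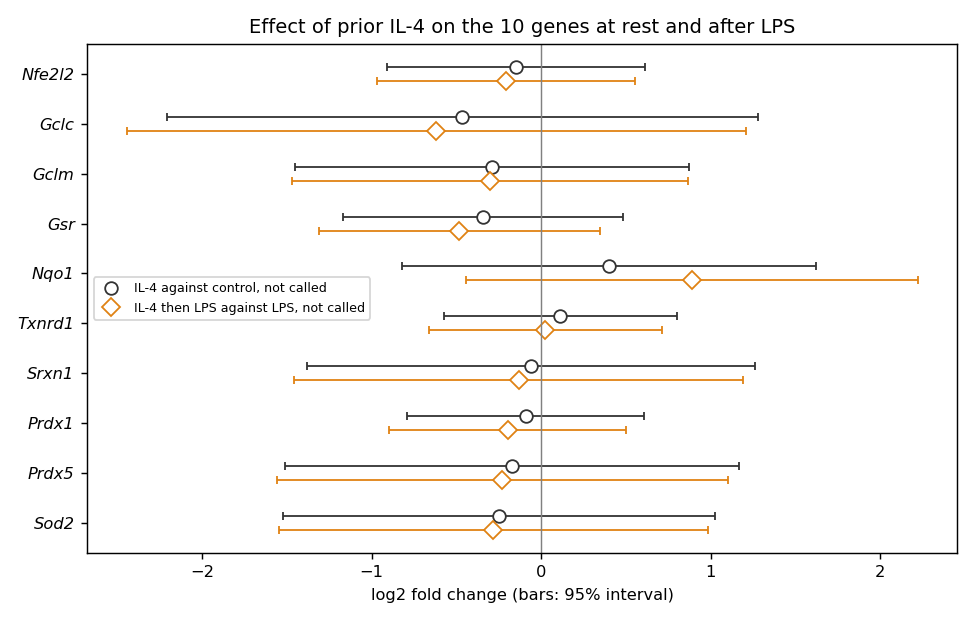
Log2 fold change of the 10 genes with prior IL-4 at rest (circles) and after LPS (diamonds), with 95% intervals as bars; open symbols are not called. All 20 intervals hold 0, and the widest is that of Gclc after LPS, from -2.45 to 1.21.

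The libraries of the 2 replicate numbers differed in all 10 genes, and in the same direction in each of the 4 groups. This comparison was added after the data were seen. In a fit with the number as a term, 10 of 10 genes were called, beside 13.4% of all tested genes. The 10 genes, like the pathway lists used below, were chosen with earlier results of these data known. The share of all genes is therefore given as background and does not test the set. Prdx5, Sod2 and Nfe2l2 were higher in replicate 3, beside 5.98% of all genes, and Gclc, Srxn1, Nqo1, Gclm, Gsr, Prdx1 and Txnrd1 were lower, beside 7.41%. Of all tested genes, 37.2% differed in the same direction in all 4 groups. Libraries of one number may share an animal, so the p-values here measure how well the difference repeats over treatments and not how animals differ.

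Gclc differed most. Its level in replicate 1 was 270.3 CPM in control, 186 after IL-4, 71.4 after LPS and 46.4 after IL-4 then LPS, against 63.5, 56.0, 35.4 and 23.4 CPM in replicate 3. The log2 difference, replicate 3 minus replicate 1, was -1.50 ± 0.18 (adjusted p 0.00186). It was wider without LPS (-2.09 and -1.73) than with it (-1.01 and -0.99). Srxn1 followed with -1.09 ± 0.10, Nqo1 with -1.05 ± 0.12 and Gclm with -0.94 ± 0.11. The recycling enzyme Gsr stood at -0.66 ± 0.08, Prdx1 at -0.51 ± 0.08 and Txnrd1 at -0.45 ± 0.11. These 7 include each of the ligase subunits and Nqo1, and all are known targets of NRF2.

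Prdx5, Sod2 and Nfe2l2 went the other way. Prdx5 was higher in replicate 3 by 1.12 ± 0.08 on the log2 scale, and by 0.93 to 1.19 in the single groups. Sod2 was higher by 0.92 ± 0.19, by 1.50 in control and 1.42 after IL-4 but by 0.48 after LPS and 0.33 after IL-4 then LPS. Nfe2l2 was higher by 0.53 ± 0.12, with 0.06 in control and 0.82 after IL-4 then LPS. Thus the transcript of NRF2 was higher in the libraries in which 7 of its known targets were lower. Removing a library, which removes its group from this comparison, left 7 to 9 calls. Nfe2l2 lost its call without either LPS library (0.0863), either IL-4 library (at most 0.0667) or either IL-4 then LPS library (0.111). Txnrd1 lost it without a library of control (0.118), IL-4 (at most 0.118) or IL-4 then LPS (at most 0.104), and Sod2 without one of control (at most 0.0612) or IL-4 (at most 0.0661).

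**Figure D4:**
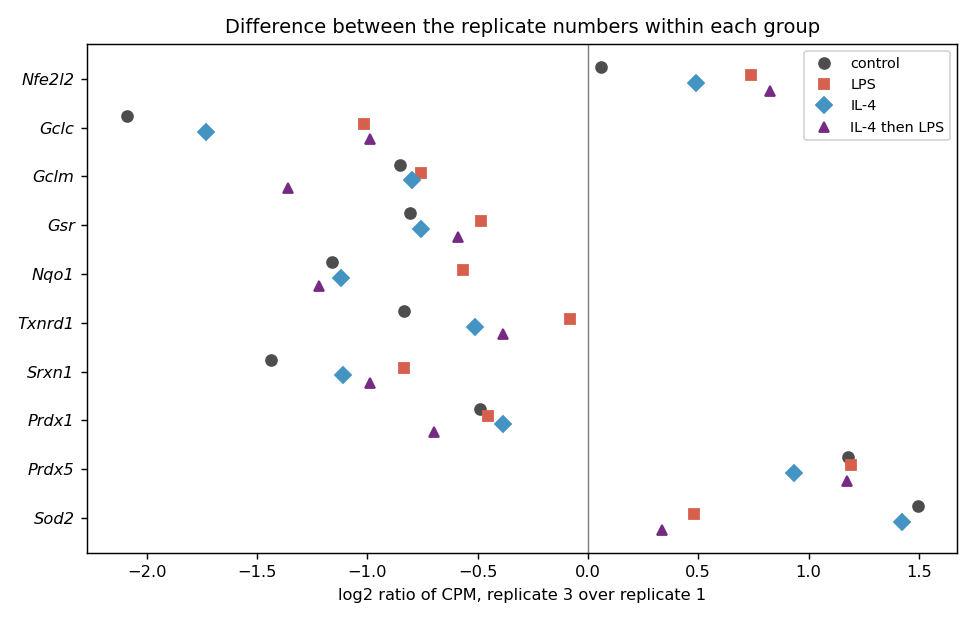
Log2 ratio of CPM, replicate 3 over replicate 1, of each of the 10 genes in each of the 4 groups. All 4 symbols of Nfe2l2, Prdx5 and Sod2 lie above 0 and all 4 of each of the other 7 genes lie below 0, with Gclc in control at -2.09 the farthest out.

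Macrophage markers summed to 12562 to 19501 CPM in replicate 1 and to 17543 to 25102 CPM in replicate 3. These sums rest largely on Lyz2, at 8017 to 19576 CPM over all libraries, as no other marker passed 2949 CPM. The part of the difference between the sums in the results by number was not tested. Other genes of the same pathways also differed by number: of 102 tested, 11 were higher in replicate 3 (10.8%, beside 5.98% of all tested genes) and 15 lower (14.7%, beside 7.41%). Hmox1, heme oxygenase 1 and an NRF2 target, was at 924 CPM in control replicate 1 and 402 in control replicate 3, and at 1378 and 508 CPM after IL-4. Its log2 difference was -1.29 ± 0.11 (adjusted p 0.000588). Gss, which completes glutathione, had -0.86 ± 0.09 and Gpx3, a secreted glutathione peroxidase, -0.78 ± 0.08. Among the other 28 NRF2 targets tested, 4 were higher and 8 were lower in replicate 3. Marco, a scavenger receptor, was higher by 1.85 ± 0.29, and Nadk, which makes NADP, by 0.66 ± 0.08. Nfe2l1, a relative of NRF2, was higher by 0.42 ± 0.07. These 6 genes kept their calls in every alternative run. Keap1, the inhibitor of NRF2, was higher by 0.29 ± 0.07 (adjusted p 0.0285), and it lost that call without any 1 library (adjusted p up to 0.125) and with library-size scaling. Bach2, a repressor that binds the same elements, had -2.09 ± 0.42 (adjusted p 0.0153) and was not called when a control or IL-4 library was left out (up to 0.119). Sesn1 was higher in replicate 3 by 0.62 ± 0.11 and kept its call. A further 11 genes lost theirs in some alternative, at least once when a library was left out. Mgst1 (0.37), Gpx1 (0.36), Mthfd2 (0.34), Txn1 (0.30) and Gsto1 (0.27) were higher, and Aox1 (-1.92), Sesn3 (-0.74), Me1 (-0.58), Prdx6 (-0.46), Cat (-0.43) and Mthfd1l (-0.33) were lower, with adjusted p up to 0.1805 over these 11.

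Over the 8 libraries, the gene most like each of the 10 genes other than Srxn1 was found by the root mean square difference of centred log2 CPM. The 8 points share library scaling, LPS and the replicate number. Prdx1 was nearest to Ccnl2 (0.0746), Txnrd1 to Tes (0.0874), Gsr to Abcc1 (0.0967) and Nfe2l2 to Gphn (0.116). Gclc was nearest to Bach2 (0.222), Gclm to Reps2 (0.181) and Nqo1 to Pole (0.153). Bach2 had 152 reads over the 8 libraries and 1 to 7 in each library with LPS, so its likeness to Gclc rests on low counts. Prdx5 was nearest to Lmo4 (0.166) and Sod2 to H2-Q7 (0.173), a class I MHC gene whose reads may be shared with near-identical neighbours. Within the 10, Gsr and Prdx1 were the closest pair (0.186), with Prdx1 the ninth nearest of 12233 genes to Gsr.

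Around these genes, 113 others of the glutathione, thioredoxin, NRF2 and NADPH pathways were read, of which 102 were tested. After LPS, 21 of them rose and 18 fell. Those shares, 20.6% and 17.6%, were near the 21.8% and 18.6% of all tested genes, and the median log2 fold change was -0.07, beside -0.01 for all tested genes. In the list of NRF2 regulators 7 of 14 rose and none fell, with a median of 0.51. Among the other NRF2 targets 3 of 28 rose and 8 fell, with a median of -0.27. With library-size scaling these counts were 6 and 3 among the regulators and 2 and 16 among the targets.

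The regulators that rose include genes known to restrain NRF2 and genes known to support it. Keap1, the adaptor that marks NRF2 for degradation, went from 52.4 ± 8.08 to 170 ± 16.8 CPM, a log2 fold change of 1.70 ± 0.19 (adjusted p 0.000302). Sqstm1, p62, which can sequester KEAP1, went from 1195 ± 21.7 to 4549 ± 338 CPM (1.93 ± 0.16). The small MAF protein gene Mafk, a partner of NRF2 on DNA, rose by 3.18 ± 0.14 and the ubiquitin ligase gene Trim21 by 3.96 ± 0.24. Bach1, a repressor of NRF2 targets, was at -0.18 ± 0.36 without a call, and its sign turned in 1 of the 8 runs that left out a library. Among the targets, Marco rose by 3.0 ± 0.92 and Slc7a11, listed there too, rose; Osgin1, an oxidative stress gene, fell by 2.35 ± 0.55 and Cbr3, a carbonyl reductase, fell by 1.52 ± 0.42. Hmox1 was at 924 and 402 CPM in control and 703 and 374 CPM after LPS (-0.30 ± 0.67, adjusted p 0.746), with a sign that turned in 2 of the 8 runs. Marco lost its call in a fit to only the groups compared, with library-size scaling and without control replicate 1 or LPS replicate 3, Osgin1 without control replicate 1 or LPS replicate 1, and Cbr3 without control replicate 1 or LPS replicate 3, with adjusted p up to 0.301, 0.0637 and 0.119.

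In the glutathione list, 5 of 17 rose and 2 fell, with a median of -0.21. Slc7a11, which imports cystine for glutathione synthesis, was at 217 and 68.2 CPM in control and at 1066 and 1001 CPM after LPS. The LPS libraries were nearly level, and in control replicate 1 was the higher. Its log2 fold change was 2.86 ± 0.52 (adjusted p 0.00343), and its partner subunit Slc3a2 rose by 1.50 ± 0.21. Ggct, which breaks down glutamyl peptides in glutathione turnover, rose by 2.51 ± 0.23. Glo1, a glyoxalase, fell by 0.89 ± 0.15 and Gpx1, the cytosolic glutathione peroxidase, fell by 0.74 ± 0.23. Gpx1 lost its call without control replicate 3, LPS replicate 1 or LPS replicate 3 (adjusted p up to 0.148). Gpx4, the lipid peroxide reductase, was at -0.33 ± 0.16 without a call. Thus a cystine importer rose while the ligase subunits had lower means without a call. Among 16 glutathione transferases 2 rose and 2 fell. Gstt1 had 0 reads in control and 34 after LPS, at least 17.1-fold higher with 3 reads taken as the floor of a group. Gsto2 had 27 reads in control and 1 after LPS, 17.9-fold lower with a 95% counting interval of 2.95 to 734, and lost its call without any 1 control or LPS library (adjusted p up to 0.1495) and with DESeq2. Gstcd rose by 1.20 ± 0.32 and Gstp1 fell by 0.86 ± 0.23; they lost their calls without some of these libraries (up to 0.106 and 0.0808), and Gstcd also with library-size scaling.

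In the thioredoxin list, 4 of 18 rose and 3 fell, with a median of 0.10. Txn1, the substrate of Txnrd1, rose by 1.14 ± 0.21, from 220.0 ± 31.9 to 484 ± 89.4 CPM. Txnip, which binds and inhibits thioredoxin, fell by 0.73 ± 0.15. Of the sestrins, Sesn1 fell by 4.74 ± 0.40 and Sesn3 rose by 1.77 ± 0.47, the latter not without control replicate 3 or LPS replicate 1 (adjusted p up to 0.0858) and not with library-size scaling. Txnl1 rose by 1.20 ± 0.14, and Msrb1, a methionine sulfoxide reductase, fell by 1.05 ± 0.21. Prdx6 was at 0.07 ± 0.29, without a call, and negative with upper-quartile and library-size scaling. Of 4 other superoxide dismutase and catalase genes, Cat, catalase, fell by 1.08 ± 0.26, though not without control replicate 1 or LPS replicate 3 (adjusted p up to 0.0802). Sod1, the cytosolic dismutase, was at -0.02 ± 0.17 (adjusted p 0.922).

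For NADPH, the shared reductant of Gsr and Txnrd1, 2 of 16 supply genes rose and 5 fell. Mthfd2, a mitochondrial folate enzyme, rose by 2.23 ± 0.22 and Aldh1l1 by 1.22 ± 0.23. Idh1, cytosolic isocitrate dehydrogenase, fell by 2.25 ± 0.23 and its mitochondrial relative Idh2 by 0.94 ± 0.15. G6pdx, the entry enzyme of the pentose phosphate pathway, fell by 0.43 ± 0.13, and lost that call without any 1 control or LPS library (adjusted p up to 0.124), without the low-count filter and in a fit to only the groups compared. Me1, malic enzyme, was at 0.02 ± 0.34, without a call and with a sign that depended on the scaling.

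**Figure D5:**
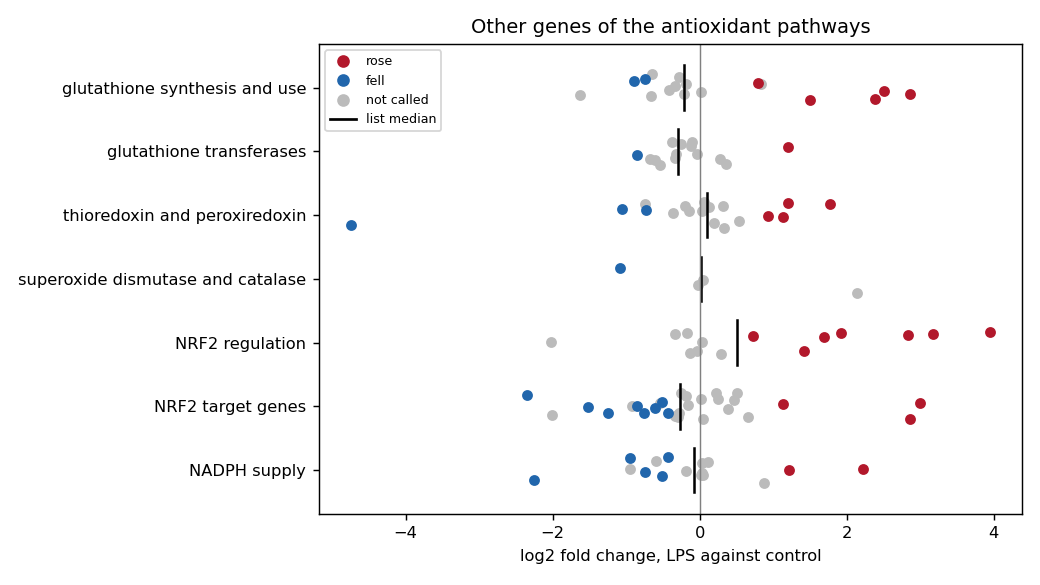
Log2 fold change with LPS of the other tested genes in each pathway list, coloured by call, with the list median as a bar; height within a list is arbitrary, and Gstt1 and Gsto2 are not drawn because a group held at most 1 read. The NRF2 regulators have a median of 0.51 and the NRF2 targets one of -0.27, and called genes of each direction stand in most lists.

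After IL-4 then LPS against IL-4, 19 of the 102 rose (18.6%, beside 20.7% of all tested genes) and 16 fell (15.7%, beside 18.6%), with 7 of 14 regulators rising and none falling, and 3 of 28 targets rising and 7 falling. Slc7a11 rose by 3.21 ± 0.52, Sqstm1 by 1.95 ± 0.16 and Keap1 by 1.11 ± 0.19, and these kept their calls in every alternative run. Of the regulators, Trim21 rose by 4.06 ± 0.24 and the small MAF gene Maff by 2.90 ± 0.22. Sesn1 fell by 3.99 ± 0.38, Idh1 fell by 1.97 ± 0.23 and Msrb1 fell by 1.29 ± 0.22, while Ggct rose by 2.70 ± 0.24, Mthfd2 by 1.61 ± 0.21, Slc3a2 by 1.34 ± 0.21 and Txnl1 by 1.20 ± 0.14, and these 9 also kept their calls. Txn1 rose by 0.96 ± 0.21, a call lost when replicate 1 of IL-4 or replicate 3 of IL-4 then LPS was left out (adjusted p up to 0.0545) or with library-size scaling. Cat fell by 0.86 ± 0.26 and lost it without the same libraries (up to 0.187) or in a fit to only the groups compared. A further 11 genes were called and each lost its call in some alternative, at least once when a library was left out. Marco rose by 4.70, Sesn3 by 1.85, Gstcd by 0.96 and Aldh1l1 by 0.95. Osgin1 fell by 2.11, Cbr3 fell by 1.72, Gstt3 fell by 1.31, Nadk2 fell by 1.16, Gstm4 fell by 0.95, Glo1 fell by 0.62 and G6pdx fell by 0.42, with adjusted p up to 0.261 over these 11. With IL-4 against control and with IL-4 then LPS against LPS, 0 of the 102 other genes were called.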

How the data were processed

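RNA of mouse bone marrow-derived macrophages was sequenced, with 2 libraries in each of 4 groups. The authors deposited raw counts, whole numbers per gene for 54532 genes; the tools named in the submitters' processing notes are HTSeq, HISAT2 and StringTie, with build mm10 and no versions. Strand setting, read length and treatment of reads that match several genes are not given in the sources used here. The table holds 6 further count columns of 14, which the labels do not describe and which were not used.

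edgeR's filterByExpr, given the groups, kept 12234 genes. Libraries were scaled by trimmed mean of M-values (TMM, factors 0.786 to 1.25), and levels are CPM on that scale, divided by exon length for CPM per kb. edgeR 4.0.16 (R 4.3.3) fitted 1 mean per group over the 8 libraries by quasi-likelihood, with 4 residual and 3.78 prior degrees of freedom. P-values were adjusted by Benjamini-Hochberg over all tested genes, and calls were made below 0.05. The SE is the size of the log2 fold change over the root of F. Nothing in the labels says that the libraries came from separate cultures or animals, so p-values measure the spread between these libraries. Differences by replicate number come from a fit with the number as a term (3 residual degrees of freedom), added after the data were seen. The script was tested on simulated data.

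The 10 genes and the pathway lists were chosen with earlier results of these data known. All 10 were tested in every comparison. In the comparisons of prior IL-4 and in those between responses, values are given for only some of them. Of the other pathway genes, 15 fixed ones are named for LPS against control, and per list and comparison up to 2 called genes with the largest rise and 2 with the largest fall, with the 15 also where called. Likeness used log2 CPM with a pseudocount of 0.5. The gene nearest to Srxn1 is not reported here. Counting intervals are exact (Clopper-Pearson, 95%) and, like the floor of 3 reads, cover counting error only. Alternatives were other scalings (relative log expression, upper quartile, library size), no filter, DESeq2 1.42.0, a fit to only the groups compared, a replicate term, and each library left out.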

Additional observations from a re-analysis of the deposited data

Results flagged for a closer look

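The LPS response of the replicate 3 libraries was compared with that of replicate 1 over both arms, by a term for number and LPS that was added after the data were seen. The fit had 2 residual and 12.7 prior degrees of freedom. The 2 numbers differ in sex, and sex, animal and batch cannot be told apart here. The p-values of this comparison measure how well the difference repeats over both arms, and not how animals or sexes differ. Of all tested genes 4.59% were called, and of the 10 antioxidant genes Sod2 and Gclc.

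Sod2 rose less in replicate 3: the log2 response was different by -1.05 ± 0.12 (adjusted p 0.000109). In replicate 1 the ratios were 3.61 without and 3.61 with prior IL-4, and in replicate 3 they were 2.60 and 2.52. The call held in every alternative run. Gclc had a less negative response in replicate 3, by 0.909 ± 0.155 (adjusted p 0.00267), with -1.92 and -2.0 in replicate 1 against -0.84 and -1.26 in replicate 3. The call was lost without either LPS library (adjusted p up to 0.0714).

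Among the other named genes, Slc7a11 rose more in replicate 3, by 1.17 on the log2 scale, and the call was lost without either LPS library and with DESeq2. Bach1 differed by -0.996 and kept its call in every alternative run. Osgin1 (1.60), Sesn2 (0.796), Trim21 (-0.530) and Msrb1 (-0.501) were also called, and lost their calls without 1 library of several groups and with DESeq2 (adjusted p up to 0.468).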

How the results depend on the processing

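With 2 libraries per group, calls of single genes often rest on 1 library, and a left-out library leaves a lone sample that is assumed to vary like the other groups. Sod2 after LPS in both arms kept its call in every alternative. Over 150 values of the 10 genes for LPS against control, 123 kept their direction and their side of the threshold, 17 gained a call, 8 lost one and 2 changed sign; for IL-4 then LPS against IL-4 these were 126, 13, 9 and 2. None of the alternatives for the difference between the responses gave a call among the 10. The causes were not tested.

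For LPS against control, 3 of the 10 genes were called, but 9 without the low-count filter and 5 with DESeq2, and 1 to 3 with a library left out. For IL-4 then LPS against IL-4, 3 were called, 9 without the filter, 1 with upper-quartile scaling and 1 to 3 with a library left out. For IL-4 then LPS against LPS, 1 was called without the filter. As background, DESeq2 called 2598 of the 12234 genes as rising and 2133 as falling for LPS against control. Upper-quartile scaling called 1924 and 3426 for IL-4 then LPS against IL-4. The fit without the filter tested a larger set, and called 267 and 540 of it for the response by number. For the response by number 2 were called, 4 without the filter and 1 to 5 with a library left out. Over all genes, IL-4 against control gave 8 calls, but 360 without the filter, 110 with DESeq2 and 4 to 9 with a library left out. IL-4 then LPS against LPS gave 8, but 397, 119 and 5 to 12. The difference between the responses gave 0, but 53 and 5. IL-4 then LPS against IL-4 gave 4808, and 3120 to 4802 with a library left out. The number gave 1638, 2479 without the filter and 690 to 979 with a library left out; the response by number gave 562, 303 with DESeq2 and 163 to 555 with a library left out.

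With library size alone the median log2 change of all genes was -0.62 for LPS against control and -0.56 for IL-4 then LPS against IL-4, and with upper-quartile scaling -0.28 in both. In the second arm 1546 genes rose and 5321 fell with library size alone, against 2537 and 2271.

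The labels do not say that equal numbers mark a shared animal or batch, and each comparison has 2 pairs. Deviations of equally numbered libraries from their group means correlated at 0.343 to 0.524 over the 6 pairs of groups, and sex goes with the number. With a replicate block, 9 of the 10 genes were called for LPS against control (6 rose, 3 fell) and 9 for IL-4 then LPS against IL-4 (6 and 3); Srxn1 was the exception in each. No IL-4 comparison gained a call among the 10. Over all genes, LPS against control with the block gave 3453 rising and 3121 falling, and IL-4 then LPS against IL-4 gave 3182 and 3151. The block also gave 288 calls over all genes for IL-4 against control, 281 for IL-4 then LPS against LPS and 1 for the difference between the responses.

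Signs that turned were these. For LPS against control, Prdx6 was -0.20 with upper-quartile scaling and -0.54 with library size, and Me1 -0.25, -0.59, -0.029 without the filter and -0.0037 with only the groups compared. For the difference between the responses with library size, Nfe2l2 was 0.028, Gclm 0.078, Srxn1 0.013, Prdx5 0.023 and Sod2 0.053; Gclm was 0.0080 with relative log expression, 0.0071 with upper-quartile scaling and 0.0082 with DESeq2.

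With 1 library left out, ranges for LPS against control were -0.80 to 0.62 for Srxn1, -0.70 to 0.21 for Bach1, -0.82 to 0.37 for Hmox1, -0.15 to 0.21 for Prdx6, -0.25 to 0.17 for Sod1 and -0.34 to 0.36 for Me1. For IL-4 against control they were -0.46 to 0.049 for Nfe2l2, -0.77 to 0.15 for Gclm, -1.60 to 0.88 for Gclc, -0.79 to 0.071 for Gsr, -0.74 to 0.79 for Srxn1, -0.27 to 0.55 for Txnrd1, -0.34 to 0.13 for Prdx1, -0.76 to 0.51 for Prdx5, -1.18 to 0.66 for Sod2 and -0.29 to 1.05 for Nqo1. For IL-4 then LPS against LPS they were -0.68 to 0.21 for Nfe2l2, -1.14 to 0.22 for Gclm, -0.71 to 0.34 for Srxn1, -0.18 to 0.20 for Txnrd1, -0.59 to 0.11 for Prdx1 and -0.93 to 0.49 for Prdx5. For IL-4 then LPS against IL-4, Srxn1 ran from -0.86 to 0.38. For the difference between the responses they were -0.53 to 0.36 for Nfe2l2, -0.84 to 0.51 for Gclm, -1.47 to 1.01 for Gclc, -0.53 to 0.34 for Gsr, -0.89 to 0.64 for Srxn1, -0.49 to 0.32 for Txnrd1, -0.50 to 0.20 for Prdx1, -0.76 to 0.66 for Prdx5, -0.92 to 0.92 for Sod2 and -0.24 to 1.20 for Nqo1. For the response by number they were -0.53 to 0.070 for Gclm and -0.083 to 0.57 for Nqo1.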

Other observations

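Other genes of the pathway lists that changed after LPS against control were outside the naming rule, and are given here after their values were seen. They were not followed through the alternative runs for this comparison, so how far these changes depend on the processing is not known. Of the regulators, the small MAF gene Maff rose by 2.84 ± 0.23 on the log2 scale, Nfe2l1, a relative of NRF2, by 1.42 ± 0.25 and Cul3, the scaffold of the ubiquitin ligase that acts with KEAP1, by 0.72 ± 0.13. Of the glutathione genes, Chac1, which degrades glutathione, rose by 2.39 ± 0.40 and Glrx, glutaredoxin, by 0.79 ± 0.15. The sestrin gene Sesn2 rose by 0.93 ± 0.26. Of the NRF2 targets, Cbr1, a carbonyl reductase, fell by 1.25 ± 0.20, Blvra, biliverdin reductase, fell by 0.76 ± 0.21, Slc48a1, a heme transporter, fell by 0.61 ± 0.19 and Taldo1, transaldolase, fell by 0.51 ± 0.14. Me2, a mitochondrial malic enzyme, fell by 0.75 ± 0.21.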
